A study of Mus musculus with 61 samples.

Results

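The mRNAs of the translation initiation and elongation factors were followed through mouse preimplantation development and in embryos with Klf17 genotype labels. Members were taken by symbol alone: all genes whose symbols start with Eif1, Eif2, Eif3, Eif4, Eif5, Eif6, Eef1 or Eef2, without the eIF2 kinases (Eif2ak) and without symbols that hold "-ps". This gave 64 of the 24551 genes of the window table and 63 of the 22911 genes of the genotype table, in which Eef1a2, the second form of eEF1A, was not among the genes. Of these, 61 and 62 passed the filter on low counts and were tested, among 16234 and 16694 genes. Eef1a2, Eef1akmt3 and Eif2c5 were close to 0 reads in the windows and were not tested there, and Eef1akmt3 was not tested in the genotypes. Eif2c5 entered through its spelling (Eif2c is an older name of the Argonaute genes) and was given no role.

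Protein synthesis starts when initiation factors bring the initiator tRNA, the small ribosomal subunit and the capped mRNA together and select a start codon, and elongation factors then deliver aminoacyl-tRNAs and move the ribosome along. The full-grown oocyte stores mRNAs and translates a selected part of them, and the embryo replaces this stock with its own transcripts when its genome is activated, in the mouse at the late 1-cell and above all the 2-cell stage. Several factors exist as paralogue pairs or families, of which some are best known from oocytes, so their transcripts can be followed separately.

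The windows comprised MII oocytes and in vitro fertilised embryos labelled with 4-thiouridine (4SU, 2 mM) over 6 h, with 10 embryos per library, named here by hours post insemination (hpi): MII, 0-6hpi, 6-12hpi, 12-18hpi, 18-24hpi, 24-30hpi, 30-36hpi, 48-54hpi, 70-76hpi and 90-96hpi, with 3 libraries each. The genotype libraries came from embryos of the stage that the submitters abbreviate M2C and are labelled KO (3), mKO (3), pKO (2) and ctrl (3). The gene concerned is Klf17, a Kruppel-like transcription factor. For ctrl the genotype is given as WT, wild type. All genotype libraries were likewise labelled with 4SU. The labels give neither strain, nor the alleles, nor embryo age in hours, nor what m and p stand for. Klf17 itself measured 673, 603 and 728 CPM in the libraries labelled KO, 359, 845 and 794 in mKO, 812 and 1015 in pKO and 596, 805 and 746 in ctrl. The libraries labelled KO overlapped those of ctrl (log2 ratio -0.10, SE 0.30, adjusted p = 0.869), so the counts of this gene do not check the label, and KO in what follows stands for that label, on which every direction given for these libraries rests.

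Total counts ran from 7395193 to 13301570 in the windows and from 14080264 to 23018252 in the genotypes. CPM, the usual depth-scaled counts, were computed with TMM factors, log2 ratios in parentheses are fitted log2 fold changes with their SE, "called" means a Benjamini-Hochberg adjusted p below 0.05 over all genes tested in edgeR's quasi-likelihood test, and values with ± are means and SD over the libraries of a group. RNA was captured by oligo-dT, and the labels do not say if every read was counted or those with a T-to-C conversion alone, so a level can include RNA made before labelling and can move with poly(A) tail length. Nothing says how replicate libraries were made, and p-values therefore cover their spread alone, which may be technical. In such bulk libraries a change relative to total RNA, fewer cells of a type and less RNA per cell cannot be told apart. Markers of oocyte, 2-cell stage and trophectoderm followed the labelled stages. The summed level of 9 oocyte genes lay at 9798 to 9993 CPM in MII and at 2.88 to 70.4 CPM at 90-96hpi. That of 8 genes of the 2-cell stage was highest at 18-24hpi (1859 to 2038 CPM), and that of 7 trophectoderm genes at 90-96hpi (5569 to 8967 CPM). The sum of 5 inner cell mass genes was highest at 70-76hpi (604 to 691 CPM) and lay at 504 to 551 CPM at 90-96hpi. The 8 markers of cumulus cells summed to at most 152 CPM. In MII 3 of them had reads, led by Cyp19a1 and Has2, while Amh, Fshr, Foxl2, Ptx3 and Tnfaip6 were at 0. Markers of sperm summed to at most 8.31 CPM.

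The translation factors took 1.07% ± 0.0147 of all counts in MII, 1.08% ± 0.00764 at 18-24hpi, 1.295% ± 0.0384 at 24-30hpi, 1.98% ± 0.0503 at 30-36hpi and 3.48% ± 0.100 at 48-54hpi, then 3.25% ± 0.0407 at 70-76hpi and 2.496% ± 0.184 at 90-96hpi (SD, n = 3). The highest mean of a member lay at 48-54hpi for 27 of the 61 tested, at 70-76hpi for 14, at 90-96hpi for 7, at MII for 5 and at 12-18hpi for 4. The lowest mean lay in MII for 20 members, at 18-24hpi for 8 and at 24-30hpi for 7. The ratio of highest to lowest mean had a median of 20.5 and ran from 1.87 to 1075 over the 58 members with reads in every library of their lowest group, which leaves out Eif2s3y, Eif4e1b and Eif4ebp3.

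**Figure D1:**
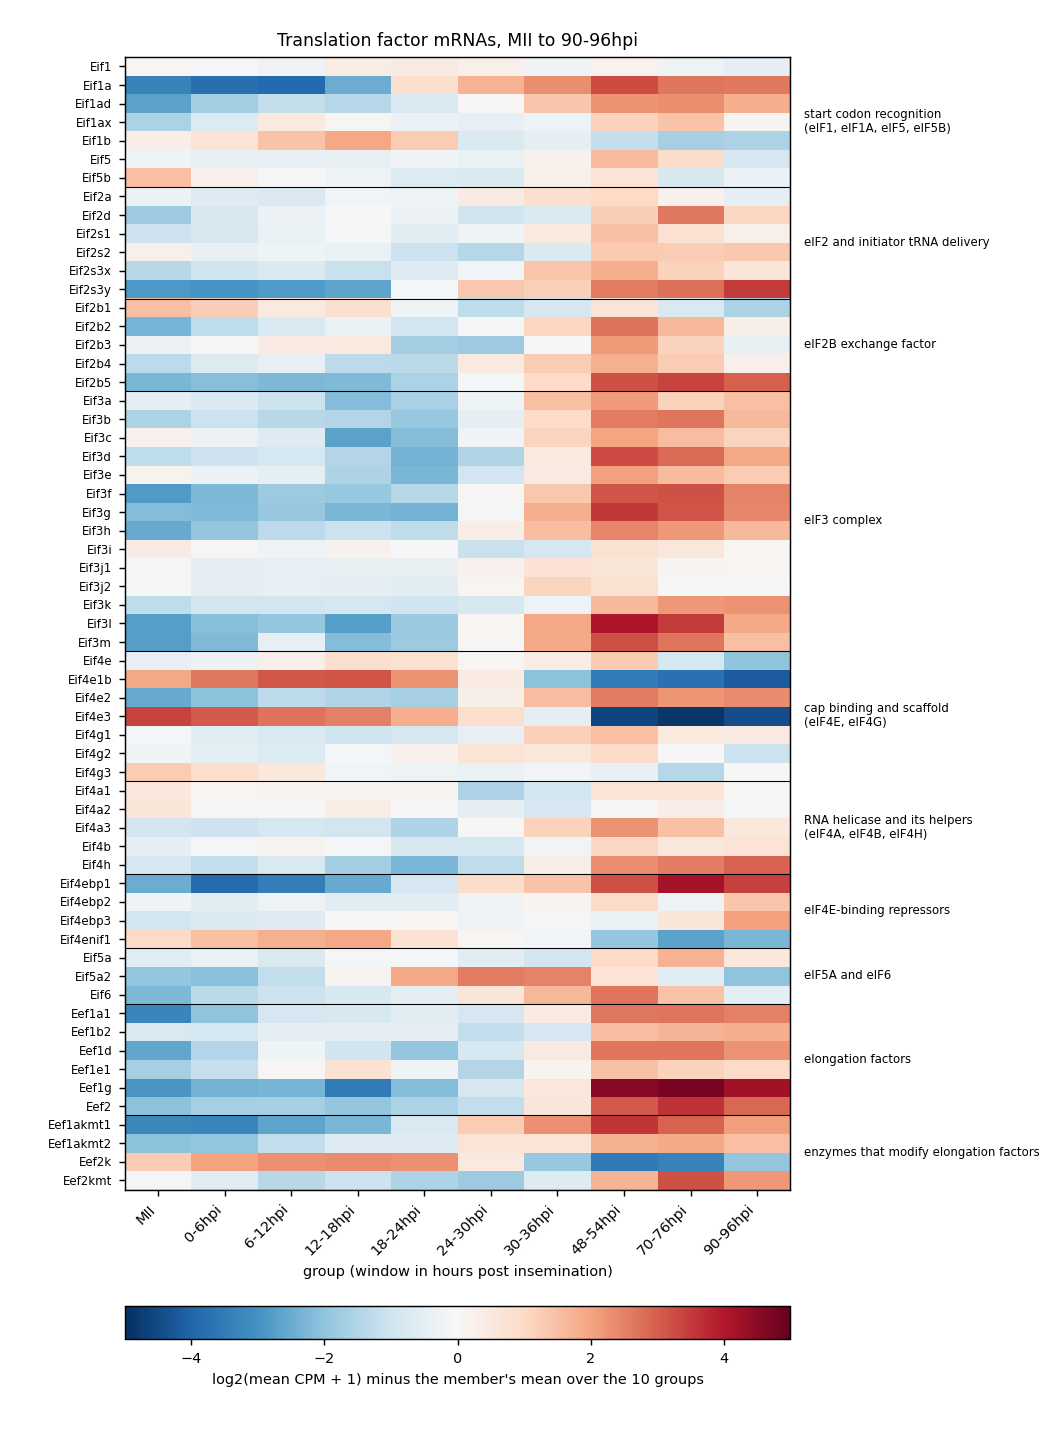
Heatmap of the 61 tested translation factor genes (rows, grouped by role) over the 10 window groups (columns); colour gives log2(mean CPM + 1) of 3 libraries minus the gene's mean over the groups. Most rows turn from blue to red between 24-30hpi and 48-54hpi, while Eif4e3, Eif4e1b, Eef2k, Eif4enif1 and Eif1b run the other way.

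Fertilisation and the pronuclear windows changed members in both directions. At 0-6hpi against MII, 16 of 61 members rose and 9 fell, where 12.9% of all genes tested rose and 8.28% fell. With DESeq2 size factors the members' split was 13 and 14, and with total count scaling 26 and 4. Eef1a1, the GTPase that delivers aminoacyl-tRNAs, rose to 144, 145 and 127 CPM at 0-6hpi, against 44.1, 71.3 and 58.0 CPM in MII (log2 ratio 1.26, SE 0.16, adjusted p = 4.37e-07). Eif5b, the GTPase that joins the ribosomal subunits, fell to 538, 501 and 513 CPM, against 1338, 1349 and 1037 CPM in MII (log2 ratio -1.26, SE 0.14, adjusted p = 8.88e-09). The libraries of the groups did not overlap for either gene. Eef1d, Eif1ax and Eif6 rose too (log2 ratio 1.19 at adjusted p = 5.90e-07, log2 ratio 0.90 at adjusted p = 7.88e-06 and log2 ratio 0.92 at adjusted p = 1.80e-05). Eif2s2, the beta subunit of eIF2, and the helicase Eif4a2 fell (log2 ratio -0.63 at adjusted p = 9.58e-06 and log2 ratio -0.56 at adjusted p = 8.18e-04). The fall of Eif4g1 (log2 ratio -0.51 at adjusted p = 0.00529) was not called with total count scaling.

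At 6-12hpi against 0-6hpi, 13 members rose and Eif2b1 fell (log2 ratio -0.72 at adjusted p = 7.87e-05), against 4.73% and 2.93% of all genes. Eif3m, a subunit of eIF3, rose to 71.7, 75.0 and 73.9 CPM at 6-12hpi, against 23.0, 22.6 and 16.1 CPM at 0-6hpi (log2 ratio 1.84, SE 0.17, adjusted p = 7.65e-10). The rise was transient: at 12-18hpi Eif3m stood at 17.1, 21.4 and 24.3 CPM (log2 ratio -1.81 at adjusted p = 8.66e-10 against 6-12hpi). Eef1e1, a component of the multi-tRNA synthetase complex, and Eif1ax, the X-linked eIF1A, rose as well (log2 ratio 1.21 at adjusted p = 3.74e-08 and log2 ratio 1.18 at adjusted p = 9.17e-08). Without 0-6hpi replicate 1 or 3 or any 6-12hpi replicate 8 or 9 members were called at this step, and 12 without 0-6hpi replicate 2.

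At 12-18hpi against 6-12hpi, 11 members rose and 11 fell, against 7.11% and 6.09% of all genes, and 5 of the 11 that fell were subunits of eIF3. Without 12-18hpi replicate 2, 5 rose and 10 fell. Eif3c fell to 23.5, 22.3 and 31.3 CPM at 12-18hpi, against 104, 106 and 118 CPM at 6-12hpi (log2 ratio -2.09, SE 0.15, adjusted p = 2.90e-12). Eif3a and Eif3e fell too (log2 ratio -1.08 at adjusted p = 2.31e-06 and log2 ratio -1.06 at adjusted p = 1.28e-05), as did Eif3d (log2 ratio -0.61 at adjusted p = 0.00962). Eif1, which guards start codon selection, and Eif4e, the cap-binding protein, rose (log2 ratio 0.54 at adjusted p = 3.14e-04 and log2 ratio 0.58 at adjusted p = 3.74e-04), as did Eef1e1 and Eif5a (log2 ratio 0.67 at adjusted p = 3.51e-04 and log2 ratio 0.63 at adjusted p = 0.00108).

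At 18-24hpi against 12-18hpi, 11 members rose and 18 fell, against 18.1% and 14.9% of all genes. The split was 17 and 15 with DESeq2 size factors and 18 and 14 with total count scaling. Eif1a, the autosomal eIF1A, rose to 67.0, 98.3 and 73.9 CPM at 18-24hpi, against 4.70, 9.54 and 7.31 CPM at 12-18hpi (log2 ratio 3.47, SE 0.26, adjusted p = 3.21e-12). Eif4ebp1, which sequesters eIF4E, and Eif5a2, the less abundant eIF5A, rose as well (log2 ratio 1.88 at adjusted p = 6.97e-07 and log2 ratio 1.94 at adjusted p = 5.45e-05). Eif2b3, the gamma subunit of eIF2B, fell to 30.4, 29.7 and 27.9 CPM, against 138, 136 and 136 CPM at 12-18hpi (log2 ratio -2.22, SE 0.17, adjusted p = 1.98e-12). Libraries did not overlap in any of these 4 genes. Eif3a rose (log2 ratio 0.52 at adjusted p = 0.00608), and Eif2b1 and Eif2s2 fell (log2 ratio -1.04 at adjusted p = 1.86e-08 and log2 ratio -0.73 at adjusted p = 2.32e-07).

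The broad rise came over the next 3 steps. At 24-30hpi against 18-24hpi, 31 members rose and 15 fell, where 21.0% of all genes rose and 24.4% fell; with total count scaling 39 rose and 9 fell. At 30-36hpi against 24-30hpi, 43 rose and 6 fell, where 21.0% and 29.0% of all genes did. At 48-54hpi against 30-36hpi, 50 rose and 6 fell, where 28.7% and 33.3% of all genes did. The members' median log2 fold change at these steps was 0.47, 0.77 and 1.16, beside -0.12, -0.22 and -0.19 for all genes tested; with total count scaling it was 0.88, 0.80 and 0.68 for members and 0.28, -0.20 and -0.66 for all genes. Afterwards the balance turned. At 70-76hpi against 48-54hpi, 6 members rose and 31 fell (21.6% and 21.8% of all genes), or 12 and 18 with total count scaling, and at 90-96hpi against 70-76hpi, 7 rose and 33 fell (20.1% and 19.5% of all genes), of which the rises numbered 4 without 70-76hpi replicate 3 or 90-96hpi replicate 2. Over the whole course, 90-96hpi against MII, 41 members rose and 14 fell, where 42.6% of all genes rose and 38.4% fell.

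The eIF3 complex, the scaffold that holds the small ribosomal subunit ready for the mRNA, rose in most of its genes. Of its 14 tested genes (Eif3j1 and Eif3j2 are near-identical copies, between which reads may be split), 11 rose and 1 fell at 24-30hpi, 13 rose at 30-36hpi, and 12 rose at 48-54hpi. Eif3g, an RNA-binding subunit, measured 59.4, 60.04 and 65.9 CPM at 24-30hpi, against 10.3, 7.95 and 16.1 CPM at 18-24hpi (log2 ratio 2.43, SE 0.21, adjusted p = 1.08e-11), and reached 749.9 ± 29.2 CPM at 48-54hpi. Eif3l measured 70.9, 65.5 and 78.1 CPM at 24-30hpi, against 15.0, 24.8 and 13.4 CPM at 18-24hpi (log2 ratio 2.01, SE 0.28, adjusted p = 1.61e-06), and 1116 ± 108 CPM at 48-54hpi. In both genes every library of 24-30hpi lay above every library of 18-24hpi. Eif3c and Eif3m rose at that step as well (log2 ratio 2.02 at adjusted p = 6.01e-13 and log2 ratio 1.94 at adjusted p = 1.79e-11), and at 30-36hpi Eif3a, the largest subunit, rose to 482, 725 and 770.3 CPM, against 192, 187 and 195 CPM at 24-30hpi (log2 ratio 1.78, SE 0.15, adjusted p = 4.28e-12). Eif3d, a subunit with cap-binding activity, rose at 30-36hpi (log2 ratio 2.01 at adjusted p = 2.90e-12) and again at 48-54hpi (log2 ratio 2.81 at adjusted p = 6.16e-17).

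Before that the subunits ran different courses. Eif3a, Eif3c and Eif3e started high, at 168 ± 15.6, 199.8 ± 26.7 and 183 ± 21.3 CPM in MII, and reached their lowest means at 12-18hpi or 18-24hpi (51.1 ± 7.36, 25.7 ± 4.89 and 32.6 ± 7.20 CPM). The means of Eif3f, Eif3g, Eif3b and Eif3l up to 18-24hpi were all at or below that of Eif3l at 18-24hpi, 17.7 ± 6.16 CPM. Eif3i was the exception at 24-30hpi: it fell to 101, 132 and 116 CPM, against 223, 248 and 289.6 CPM at 18-24hpi (log2 ratio -1.13, SE 0.16, adjusted p = 2.75e-07), and returned to 420.05 ± 32.9 CPM at 48-54hpi. Eif3k had its highest mean, 561 ± 94.0 CPM, at 90-96hpi, while Eif3l fell to 255 ± 91.9 CPM there, against 778 ± 68.0 CPM at 70-76hpi (log2 ratio -1.61 at adjusted p = 1.22e-05).

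**Figure D2:**
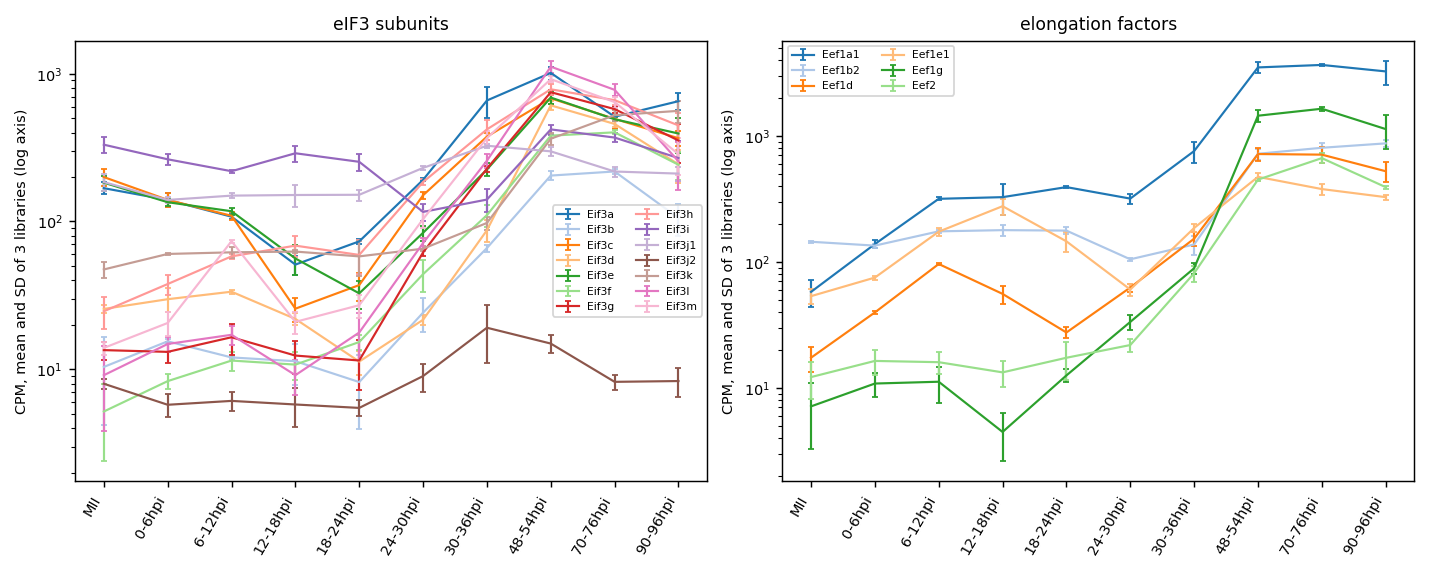
Mean CPM and SD of 3 libraries (log axis) of the eIF3 genes (left) and the tested genes of the elongation factor class, Eef1e1 among them (right), over the 10 window groups. Eif3a, Eif3c and Eif3e dip at 12-18hpi or 18-24hpi before the common rise, and Eef1g stands at 1448 ± 156 CPM at 48-54hpi, against 89.0 ± 9.31 CPM at 30-36hpi.

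Because many of these genes rose in the same windows, the sequence in front of their transcription starts is shown for 6 that rose at 24-30hpi and for Eif5a2 and Eef2, which did not pass the test there. They were chosen because the stretch holds a motif. The stretches run from 60 bases before to 20 bases after the annotated start (RefSeq, GRCm38.p6), and 48 of the 64 members had such a record. Capitals mark CCGGAAG, the core recognised by ETS-family factors, or its reverse complement CTTCCGG, and in Eef2 the E-box CACGTG and the TATA sequence TATAAA. Other members whose stretch holds a motif, whole or cut off, are not shown. Of these, Eef1b2 (CCGGAAG), Eif1b and Eef2k (both CACGTG) fell at 24-30hpi (log2 fold changes -0.76, -1.97 and -1.84). Eif2b2, Eif3f and Eif4g1 rose (0.97, 1.53 and 0.44), and Eif3k was not called (0.17). Whether a motif goes with the rise was not tested. Positions are chr9:20898571-20898650, minus strand for Eif3g, chr15:79075163-79075242, plus strand for Eif3l, chr2:105017008-105017087, minus strand for Eif3m, chr7:126566347-126566426, minus strand for Eif3c, chr5:31193120-31193199, minus strand for Eif2b4, chr1:87213851-87213930, plus strand for Eif4e2, chr3:28781217-28781296, plus strand for Eif5a2 and chr10:81176571-81176650, plus strand for Eef2.
Eif3g: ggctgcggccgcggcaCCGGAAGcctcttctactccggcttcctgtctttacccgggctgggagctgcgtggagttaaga
Eif3l: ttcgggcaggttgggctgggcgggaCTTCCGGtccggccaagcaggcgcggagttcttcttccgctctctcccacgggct
Eif3m: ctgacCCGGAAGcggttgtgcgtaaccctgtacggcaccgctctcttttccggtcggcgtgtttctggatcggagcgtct
Eif3c: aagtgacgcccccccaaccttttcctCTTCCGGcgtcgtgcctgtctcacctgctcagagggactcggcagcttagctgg
Eif2b4: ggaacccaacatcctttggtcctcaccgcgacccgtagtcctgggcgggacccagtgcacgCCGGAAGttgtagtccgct
Eif4e2: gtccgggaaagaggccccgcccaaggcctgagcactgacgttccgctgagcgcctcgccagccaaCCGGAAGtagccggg
Eif5a2: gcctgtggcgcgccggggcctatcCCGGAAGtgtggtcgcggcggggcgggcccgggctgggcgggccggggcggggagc
Eef2: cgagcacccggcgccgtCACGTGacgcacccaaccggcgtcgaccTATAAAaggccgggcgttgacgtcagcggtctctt

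In the full 300-base promoter records (250 before and 50 after the start, both strands, motifs chosen after the promoters were read), CCGGAAG was present in 14 of 48 members (29.2%), against 2465 of 27025 promoters of all genes (9.12%). CACGTG was present in 10 of 48 (20.8%), against 7.24% of all, and TATAAA in 5 of 48 (10.4%), against 14.2%. No motif contains another. The members with CCGGAAG included 5 eIF3 genes (Eif3c, Eif3d, Eif3g, Eif3l and Eif3m) and also Eif1b, whose transcript went down, and no test of these shares was made.

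The eIF2B genes, which encode the exchange factor that recharges eIF2 with GTP, split early. Eif2b1, the alpha subunit, had 237 ± 33.6 CPM at 24-30hpi, against 1608 ± 116 CPM in MII, while Eif2b2 and Eif2b5 began at 7.88 ± 1.09 and 2.71 ± 1.72 CPM. All 5 rose at 30-36hpi and again at 48-54hpi, with median log2 fold changes of 1.13 and 1.64. The rise of Eif2b4 at 48-54hpi was not called with total count scaling or without any single 48-54hpi library. At 70-76hpi and again at 90-96hpi 4 of 5 fell. Eif2b1 fell to 373, 339 and 303 CPM at 70-76hpi, against 851, 959.5 and 869 CPM at 48-54hpi (log2 ratio -1.40, SE 0.12, adjusted p = 1.73e-11). Eif2b3 measured 384, 476 and 442 CPM at 48-54hpi, against 94.8, 109 and 80.4 CPM at 30-36hpi (log2 ratio 2.20, SE 0.17, adjusted p = 1.44e-13), with no overlap.

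Of the eIF2 subunits, Eif2s2 was at 1573 ± 107 CPM in MII, went down to 488 ± 36.0 CPM at 24-30hpi and reached 3245 ± 219.8 CPM at 48-54hpi (log2 ratio 2.01 at adjusted p = 2.74e-18 against 30-36hpi). Its fall at 24-30hpi against 18-24hpi (log2 ratio -0.36 at adjusted p = 0.00269) was not called in 7 of the alternatives and turned to 0.05 with total count scaling. Eif2d, an alternative initiator tRNA factor, rose at 70-76hpi to 362, 356 and 355 CPM, against 125, 151 and 127 CPM at 48-54hpi (log2 ratio 1.41, SE 0.16, adjusted p = 6.97e-09), and fell at 90-96hpi (log2 ratio -1.60 at adjusted p = 8.44e-10). The gamma subunit is encoded on both sex chromosomes. The Y-linked Eif2s3y had 0 to 5 reads per library up to 12-18hpi, then 6.15, 10.7 and 1.63 CPM at 18-24hpi and 93.6, 85.7 and 76.2 CPM at 90-96hpi. Per kb of transcript, its share of the X and Y pair was 12.2% ± 7.59 at 18-24hpi, 23.8% ± 4.77 at 24-30hpi and 46.7% ± 2.38 at 90-96hpi (SD, n = 3), where every library had a higher share than any library of an earlier group. How reads that match both copies were counted is not stated.

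The eIF1 and eIF1A pairs, which act in scanning and start codon choice, changed in makeup. Per kb, Eif1ax made up 88.0% ± 6.02 of the eIF1A pair in MII and 98.0% ± 0.339 at 6-12hpi, and Eif1a took 57.4% ± 5.68 at 18-24hpi and 74.1% ± 3.09 at 24-30hpi. Eif1a stayed the larger part in every later group mean (78.2% ± 0.496 at 90-96hpi). Of eIF1, the paralogue Eif1b had 994 ± 21.7 CPM at 12-18hpi, against 326 ± 40.7 CPM in MII, and then held 53.3% ± 0.868 of the pair per kb. It fell to 166, 160.2 and 151 CPM at 24-30hpi, against 537, 613 and 725 CPM at 18-24hpi (log2 ratio -1.97, SE 0.13, adjusted p = 3.58e-14), the smallest adjusted p of any falling member at that step. Eif1 fell at 30-36hpi (log2 ratio -0.45 at adjusted p = 4.39e-04), and its means over the windows lay between 621 ± 29.9 CPM at 90-96hpi and 1160.4 ± 151 CPM at 18-24hpi. Eif5, the GTPase-activating partner of eIF2, peaked at 3583 ± 101 CPM at 48-54hpi and fell to 684 ± 97.7 CPM at 90-96hpi, against 2264 ± 167 CPM at 70-76hpi (log2 ratio -1.73 at adjusted p = 7.07e-16). Eif5b fell at 70-76hpi (log2 ratio -1.47 at adjusted p = 6.72e-11) and rose at 90-96hpi (log2 ratio 0.51 at adjusted p = 0.00245). Eif1ad, an eIF1A-domain protein, had 4.65 ± 2.44 CPM in MII, 92.9 ± 4.68 CPM at 30-36hpi and 179 ± 10.2 CPM at 70-76hpi.

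In the cap-binding family the leading transcript changed. In MII, Eif4e3 gave 64.8% ± 2.25 of the 4 eIF4E genes per kb, Eif4e 27.6% ± 3.19, the oocyte form Eif4e1b 7.25% ± 1.495 and Eif4e2, a cap-binding protein that does not recruit eIF4G, 0.432% ± 0.200. At 48-54hpi the shares were 0.168% ± 0.120 for Eif4e3, 84.2% ± 1.16 for Eif4e, 0.0759% ± 0.0477 for Eif4e1b and 15.6% ± 1.05 for Eif4e2, and at 90-96hpi Eif4e2 gave 60.5% ± 1.21 and Eif4e 38.5% ± 1.59.

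Eif4e3 measured 1.40, 1.35 and 4.35 CPM at 48-54hpi, against 50.2, 63.5 and 57.2 CPM at 30-36hpi (log2 ratio -4.62, SE 0.41, adjusted p = 1.02e-09). Its mean had been 846 ± 27.9 CPM in MII, 471 ± 38.7 CPM at 12-18hpi and 149 ± 8.53 CPM at 24-30hpi. Called falls of Eif4e3 between successive groups numbered 3. The one at 24-30hpi was lost in 6 of the alternatives, total count scaling among them. Eif4e1b instead went up first, to 189 ± 20.3 CPM at 12-18hpi, and fell to 26.0, 28.8 and 27.8 CPM at 24-30hpi, against 99.03, 92.1 and 111 CPM at 18-24hpi (log2 ratio -1.87, SE 0.21, adjusted p = 2.70e-09), and again at 30-36hpi (log2 ratio -2.72 at adjusted p = 1.93e-11). Eif4e2 rose to 55.9, 56.2 and 67.9 CPM at 24-30hpi, against 14.2, 19.2 and 11.4 CPM at 18-24hpi (log2 ratio 2.00, SE 0.22, adjusted p = 2.00e-09). Eif4e, the canonical member, peaked at 2347 ± 101 CPM and fell to 503, 560.4 and 476 CPM at 70-76hpi, against 2243, 2445 and 2352 CPM at 48-54hpi (log2 ratio -2.19, SE 0.12, adjusted p = 1.04e-16). Libraries did not overlap in the 4 steps given here by library.

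The eIF4G scaffolds bridge eIF4E and the helicase. Eif4g2, a scaffold that lacks the eIF4E-binding site, was the largest of the 3 per kb in every group, from 56.7% ± 5.29 at 90-96hpi to 88.4% ± 0.609 at 24-30hpi. Eif4g1 rose to 304 ± 51.0 CPM at 30-36hpi, against 99.1 ± 6.33 CPM at 24-30hpi (log2 ratio 1.62 at adjusted p = 7.33e-12). Eif4g3 had 80.1 ± 6.42 CPM in MII, 26.8 ± 4.94 CPM at 18-24hpi and 11.6 ± 1.85 CPM at 70-76hpi, and rose at 90-96hpi (log2 ratio 1.49 at adjusted p = 3.13e-06 against 70-76hpi). The called rises of Eif4g1 and Eif4g2 at 48-54hpi (0.31 and 0.37) turned to -0.16 and -0.11 with total count scaling, as did those of Eif1 (-0.10), Eif5b (-0.07) and Eif2s3x (-0.04).

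Among the helicases, Eif4a2 had the largest mean share per kb up to 18-24hpi (57.5% ± 2.94), and Eif4a3, better known from the exon junction complex, from 24-30hpi on, with 46.2% ± 2.51 at 24-30hpi, 68.0% ± 2.03 at 30-36hpi and 43.0% ± 6.01 at 90-96hpi. Eif4a3 rose at 24-30hpi (log2 ratio 1.54 at adjusted p = 6.34e-11). Eif4a1 fell to 72.8, 91.0 and 82.4 CPM at 24-30hpi, against 272, 251 and 275 CPM at 18-24hpi (log2 ratio -1.70, SE 0.12, adjusted p = 1.77e-13), and was back at 372 ± 26.5 CPM at 48-54hpi. Its fall at 90-96hpi against MII (-0.45) turned to 0.08 with total count scaling. Eif4h, which stimulates the helicase, stood at 9.48 ± 1.96 CPM at 24-30hpi, 126 ± 10.4 CPM at 48-54hpi and 192 ± 13.9 CPM at 90-96hpi.

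The eIF4E-binding repressors did not move together. Eif4enif1, the eIF4E transporter that holds mRNAs in repressed granules, peaked at 12-18hpi and fell to 332, 292 and 326 CPM at 18-24hpi, against 752, 673 and 779 CPM at 12-18hpi (log2 ratio -1.21, SE 0.12, adjusted p = 4.07e-10). It fell again to 50.9, 55.5 and 45.1 CPM at 48-54hpi, against 178, 179 and 179 CPM at 30-36hpi (log2 ratio -1.82, SE 0.13, adjusted p = 1.06e-14). Eif4ebp1 was at 1.69 ± 0.420 CPM at 0-6hpi, 70.8 ± 7.73 CPM at 24-30hpi and 692 ± 30.1 CPM at 70-76hpi, its highest mean. Eif4ebp2 and Eif4ebp3 stayed low, with highest means of 28.7 ± 2.51 and 7.50 ± 2.21 CPM, both at 90-96hpi. Eif4ebp1 rose at 70-76hpi (log2 ratio 0.97 at adjusted p = 1.84e-04), and Eif4ebp2 at 90-96hpi (log2 ratio 1.72 at adjusted p = 1.07e-05). At 90-96hpi against 70-76hpi Eif4enif1 and Eif4ebp3 were called higher too, and Eif4ebp1 fell (log2 ratio -0.77). These rises of Eif4enif1 and Eif4ebp3 were lost in 4 and 5 of the alternatives.

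**Figure D3:**
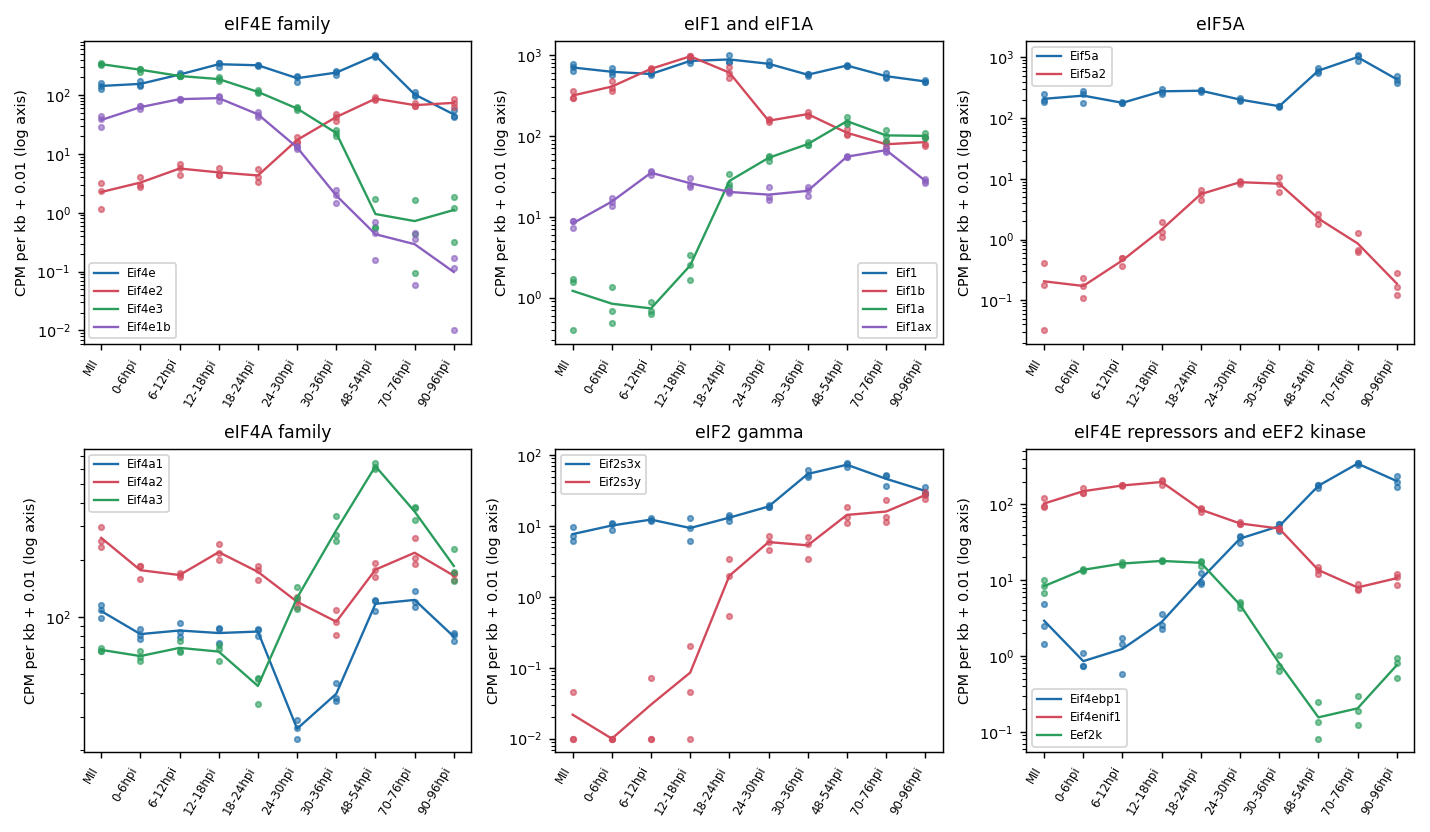
Level per kb of transcript (CPM per kb plus 0.01, log axis) of 6 sets of related genes over the 10 window groups; points are libraries and lines join the group means. Eif4e3 and Eif4e1b fall while Eif4e2 rises, Eif1a overtakes Eif1ax at 18-24hpi, and Eif5a2 peaks at 24-30hpi. Eef2k falls while Eif4ebp1 rises, which has its highest mean at 70-76hpi.

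Eif5a, the hypusine-carrying factor that helps ribosomes through difficult stretches, and Eif6, which keeps large ribosomal subunits apart from small ones, both rose at 48-54hpi (log2 ratio 1.95 at adjusted p = 1.80e-14 and log2 ratio 0.99 at adjusted p = 1.68e-07). At 70-76hpi Eif5a rose further and Eif6 fell (log2 ratio 0.74 at adjusted p = 2.18e-05 and log2 ratio -1.21 at adjusted p = 8.05e-09). At 90-96hpi against 70-76hpi Eif5a, Eif6 and Eif5a2 all fell, with log2 fold changes from -2.25 to -1.21. Eif5a2 had its own course. It measured 22.2, 28.8 and 33.4 CPM at 18-24hpi, 45.1, 40.7 and 47.1 CPM at 24-30hpi, 41.5, 53.6 and 30.4 CPM at 30-36hpi and 8.90, 11.04 and 13.4 CPM at 48-54hpi, against a mean of 0.983 ± 0.946 CPM in MII. It fell at 48-54hpi (log2 ratio -1.92 at adjusted p = 1.60e-05), and at 30-36hpi it made up 5.04% ± 1.47 of the pair per kb.

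All 6 tested genes of the elongation factor class rose at 30-36hpi and again at 48-54hpi. Their median log2 fold changes were 1.35 and 2.31, and 2.31 was the highest median of the 10 role classes at 48-54hpi. The class includes Eef1e1, which despite its symbol is a component of the multi-tRNA synthetase complex. Eef1g, a subunit of the eEF1B exchange complex, measured 1278, 1585 and 1480.3 CPM at 48-54hpi, against 92.8, 95.8 and 78.4 CPM at 30-36hpi (log2 ratio 4.02, SE 0.28, adjusted p = 4.59e-12). Eef2, the translocase, measured 458, 458 and 434 CPM at 48-54hpi, against 69.7, 80.5 and 93.6 CPM at 30-36hpi (log2 ratio 2.47, SE 0.19, adjusted p = 1.34e-13). Eef1b2 and Eef1d rose too (log2 ratio 2.39 at adjusted p = 1.44e-18 and log2 ratio 2.23 at adjusted p = 3.90e-15), while Eef1e1 had fallen at 24-30hpi (log2 ratio -1.27 at adjusted p = 1.23e-09). Per kb, Eef1a1 led the class at 48-54hpi with 1951 ± 193 CPM per kb, followed by Eef1g with 777 ± 83.6 and Eef1b2 with 372 ± 37.2 CPM per kb. How reads from the processed copies of Eef1a1 were counted is not stated.

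The enzymes that modify elongation factors moved in opposite directions. Eef2k, the kinase that inhibits eEF2, fell to 33.6, 31.8 and 28.0 CPM at 24-30hpi, against 119, 113 and 103 CPM at 18-24hpi (log2 ratio -1.84, SE 0.20, adjusted p = 2.91e-09), and to 4.83, 4.10 and 6.69 CPM at 30-36hpi (log2 ratio -2.59, SE 0.23, adjusted p = 2.19e-11 against 24-30hpi). Eef1akmt1, a lysine methyltransferase of eEF1A, rose to 23.9, 22.0 and 29.3 CPM at 24-30hpi, against 4.38, 6.80 and 5.00 CPM at 18-24hpi (log2 ratio 2.21, SE 0.28, adjusted p = 5.23e-08). Eef2kmt, which methylates eEF2, reached 52.8 ± 3.83 CPM at 70-76hpi (log2 ratio 1.55 at adjusted p = 2.57e-04 against 48-54hpi).

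From end to end, 90-96hpi against MII, the rises with the smallest adjusted p were those of Eef1a1, Eef1d, Eif3m and Eef2. Eef1a1 stood at 4032, 2678 and 3050.3 CPM at 90-96hpi, against 44.1, 71.3 and 58.0 CPM in MII (log2 ratio 5.82, SE 0.19, adjusted p = 3.42e-24), and Eef2 at 403, 381 and 393 CPM, against 10.3, 16.7 and 9.50 CPM in MII (log2 ratio 5.01, SE 0.22, adjusted p = 3.11e-21). The falls were led by Eif4enif1, Eif2b1, Eif4e1b and Eef2k. Eif4e1b stood at 0, 0.224 and 0.342 CPM at 90-96hpi, against 85.1, 94.6 and 61.4 CPM in MII (log2 ratio -8.65, SE 0.38, adjusted p = 2.30e-21), and Eif2b1 at 232, 163 and 176 CPM, against 1479.8, 1639 and 1705 CPM in MII (log2 ratio -3.08, SE 0.13, adjusted p = 1.58e-21). None of these libraries overlapped. By class, 11 of 14 eIF3 genes and 6 of 6 genes of the elongation factor class (Eef1e1 among them) rose. Of the cap-binding and scaffold genes, 5 of 7 fell and 2 rose.

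In the genotype libraries the translation factors took 1.22% ± 0.0252 of all counts in the libraries labelled KO (n = 3), 1.42% ± 0.221 in mKO (n = 3), 1.76% ± 0.0311 in pKO (n = 2) and 1.71% ± 0.0311 in ctrl (n = 3). The 3 mKO libraries spread widely, at 1.204%, 1.646% and 1.424%. Against ctrl, 21 of 62 members fell in the libraries labelled KO and none rose, where 6.31% of all genes tested fell and 1.82% rose. The members' median log2 fold change was -0.84, with 53 of 62 below 0, beside 0.05 for all genes.

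The 21 comprised 9 of 14 eIF3 genes and 3 of 6 genes of the elongation factor class (Eef2, Eef1d and Eef1e1). They also held 2 of 5 eIF2B genes (Eif2b3 and Eif2b4) and 2 of 5 helicase genes (Eif4h and Eif4a1). The rest were Eif5a, Eif6, Eif4e2, Eif1a and Eef1akmt1. In the class of eIF2 and initiator tRNA delivery, which holds Eif2a and Eif2d beside the eIF2 subunits, none of the 6 genes was called. Nor was any of the 4 eIF4E-binding repressors. Median log2 fold changes of these classes were -0.51 and -0.14. Eif3g measured 45.6, 51.9 and 31.4 CPM in the libraries labelled KO, against 132, 183 and 174 CPM in ctrl (log2 ratio -1.92, SE 0.39, adjusted p = 0.0120). Eif4h measured 12.8, 7.31 and 15.5 CPM in KO, against 34.5, 56.5 and 54.1 CPM in ctrl (log2 ratio -2.03, SE 0.44, adjusted p = 0.0143). Eef1d, a subunit of the eEF1B exchange complex, measured 53.2, 46.9 and 31.8 CPM in KO, against 107, 131 and 125 CPM in ctrl (log2 ratio -1.46, SE 0.32, adjusted p = 0.0144). In these genes every KO library lay below every ctrl library.

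The same held for Eif3c, with 85.0, 80.2 and 112 CPM in KO and 211, 239 and 207 CPM in ctrl (log2 ratio -1.24, SE 0.28, adjusted p = 0.0162), and for Eif4e2, with 47.5, 53.2 and 46.0 CPM in KO and 107, 119.97 and 131 CPM in ctrl (log2 ratio -1.29, SE 0.31, adjusted p = 0.0194). Eef2 had the lowest fold change of all members, with 18.6, 26.0 and 49.6 CPM in KO and 108, 155 and 144 CPM in ctrl (log2 ratio -2.11, SE 0.55, adjusted p = 0.0297). Eif1a had the log2 fold change nearest to 0 of those called, with 117, 125 and 121 CPM in KO and 306, 178 and 207 CPM in ctrl (log2 ratio -0.93, SE 0.28, adjusted p = 0.0476). With DESeq2 size factors Eif1a, Eef1akmt1, Eef1e1 and Eif6 were not called, nor was Eif6 with total count scaling.

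These calls depended on single libraries. With each library left out in turn, the number of members called was 1 without KO replicate 1, 0 without KO replicate 2, 5 without KO replicate 3, 14 without ctrl replicate 1, and 1 without ctrl replicate 2 or 3, all lower in KO, while the members' median stayed between -0.81 and -0.72. The share of all genes called in these fits is not given here. Whether the drop is particular to the members was not tested. Mitochondrial genes took 5.93% to 11.4% of counts in KO, 4.19% to 5.82% in mKO, 3.73% to 5.63% in pKO and 3.23% to 4.18% in ctrl, and the 9 oocyte markers summed to 3545 to 4089 CPM in KO, 2374 to 4022 CPM in mKO, 1912 to 2389 CPM in pKO and 1939 to 2739 CPM in ctrl, with reads for all 9 in every group. The 8 genes of the 2-cell stage summed to 990 to 1047 CPM in KO and 557 to 922 CPM in ctrl, and 5 inner cell mass genes to 67.1 to 104 CPM in KO, 27.0 to 48.4 CPM in mKO, 17.2 to 52.6 CPM in pKO and 27.3 to 38.3 CPM in ctrl, with reads for all 5 in every group. The part of these in the result was not tested.

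Of the members, 9 of 62 had a log2 fold change above 0. Eif4e1b had 40.6, 39.3 and 31.8 CPM in KO, against 21.6, 14.9 and 16.5 CPM in ctrl (log2 ratio 1.07, SE 0.40, adjusted p = 0.104), and Eif5a2 had 142, 129 and 96.3 CPM in KO, against 69.1, 71.0 and 46.3 CPM in ctrl (log2 ratio 0.98, SE 0.30, adjusted p = 0.0547). Neither passed the test, and no library overlapped between the groups. Among the alternatives, Eif5a2 was called higher in KO with DESeq2, DESeq2 size factors, no filter, the replicate block and only these 2 groups in the fit, and Eif4e1b with DESeq2 and only these 2 groups. Eif4e3, Eif1b and Eef2k had log2 fold changes of -0.05, 0.43 and 0.20. As a share of the eIF4A genes per kb, Eif4a2 stood at 51.0% ± 5.85 in KO and 28.7% ± 5.25 in ctrl. Eif4a2 itself was not called (log2 fold change 0.36), and its libraries overlapped, while Eif4a1 and Eif4a3 had -1.13 and -1.05. Eif5a2 gave 11.4% ± 2.43 of its pair in KO and 3.08% ± 0.572 in ctrl, where Eif5a had a log2 fold change of -1.02.

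**Figure D4:**
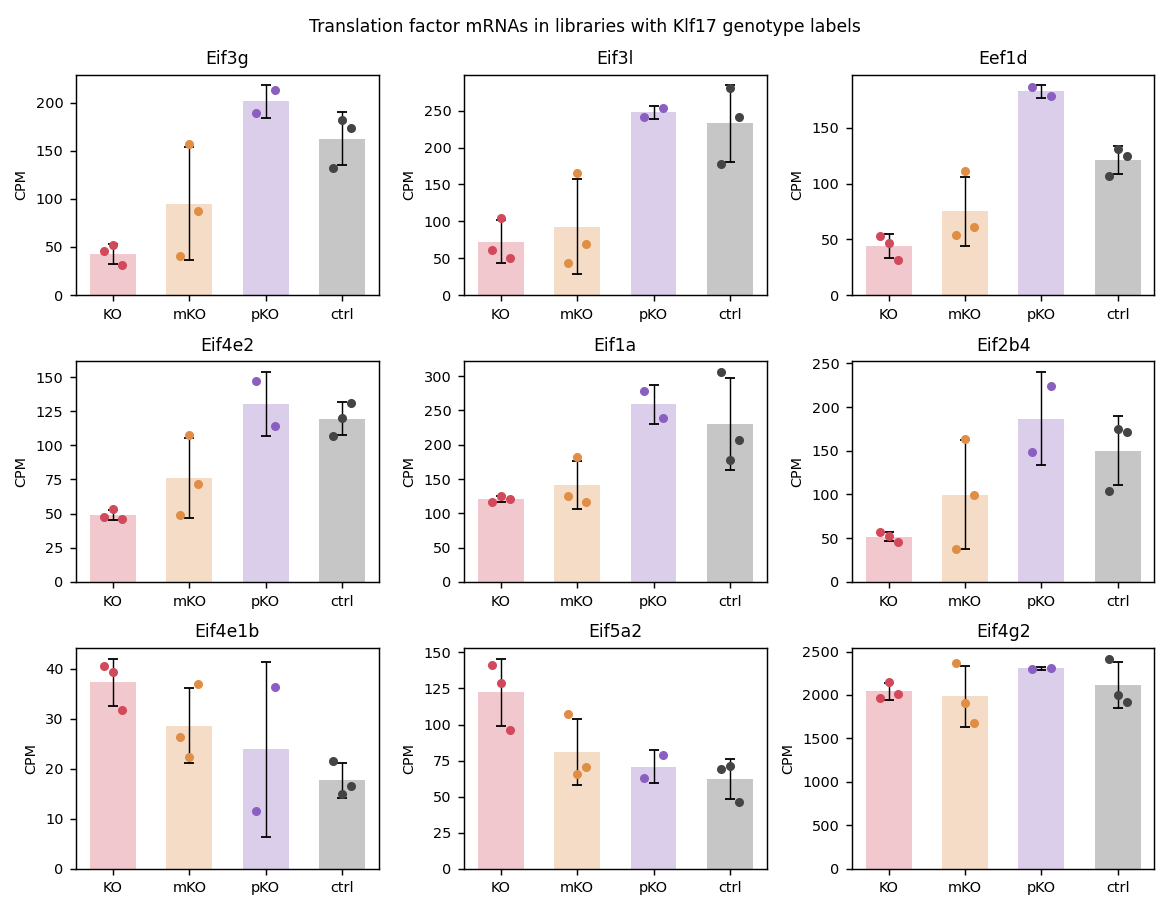
CPM of 9 translation factor genes in each genotype library; bars are group means, error bars SD (n = 3, 2 for pKO) and points libraries. In the upper 6 panels the libraries labelled KO lie below ctrl, Eif4e1b and Eif5a2 lie above ctrl without passing the test, and Eif4g2 overlaps.

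In mKO against ctrl no member was called by edgeR's quasi-likelihood test, as was no gene at all (0% higher and 0% lower). At an unadjusted p below 0.05, 13 of 62 members were lower and 1 higher, beside 1243 of 16694 genes in either direction. DESeq2 called 0 members. The members' median was -0.38, beside 0.003 for all genes. In pKO against ctrl again 0 members were called by edgeR (0% of all genes in either direction) and 0 by DESeq2. At an unadjusted p below 0.05 there were 0 members, beside 476 of 16694 genes. The members' median was 0.17, beside 0.03 for all genes. Eif3l, with 43.4, 165 and 69.7 CPM in mKO, 242 and 254 CPM in pKO and 177, 280.3 and 241 CPM in ctrl, had the smallest unadjusted p in mKO (log2 ratio -1.33, SE 0.41, adjusted p = 0.616).

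The libraries labelled KO were also set against the other genotypes. Against pKO, 26 of 62 members fell and none rose, where 9.67% of all genes fell and 2.83% rose. Eef1d had 53.2, 46.9 and 31.8 CPM in KO and 187 and 179 CPM in pKO (log2 ratio -2.05, SE 0.35, adjusted p = 0.00408), and Eif3g 45.6, 51.9 and 31.4 CPM in KO and 189 and 214 CPM in pKO (log2 ratio -2.23, SE 0.42, adjusted p = 0.00500). Eef1e1 and Eif3f were lower as well (log2 ratio -1.58 at adjusted p = 0.00998 and log2 ratio -2.15 at adjusted p = 0.0105). This count fell to 14 without KO replicate 1, 5 without KO replicate 2, 9 without KO replicate 3, and 13 and 10 without pKO replicate 1 and 2. For these fits too the share of all genes called is not given. Against mKO, edgeR called 0 members (0% of all genes in either direction). At an unadjusted p below 0.05, 15 members were lower and 0 higher, beside 2220 of 16694 genes in either direction. DESeq2 called 1 member, Eif3f, lower in KO. Without mKO replicate 1, the mKO library with the smallest share of translation factor counts, 11 were called lower in KO. The share of all genes called in that fit is not given here. Its median log2 fold change was -0.46 for members and 0.01 for all genes. Without mKO replicate 2, the mKO library with the largest share, 0 were called, and these medians were -0.10 and -0.01. The comparisons share the KO libraries or the ctrl libraries.

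The course in the windows and the difference in the libraries labelled KO come from different libraries. Of the 31 members that rose at 24-30hpi against 18-24hpi, 15 fell in KO against ctrl (median log2 fold change -1.07), and of the 15 that fell at that step, 3 did (Eif4a1, Eef1e1 and Eif5a; median -0.36). Another 3, Eef2, Eif2b3 and Eif3k, had not been called at the step. Among all genes, 22.8% of the 3396 that rose at the step and are in both tables fell in KO (median -0.79), as did 1.81% of the 3815 that fell (median 0.36). In pKO against ctrl the 31 members had a median of 0.22, and in mKO against ctrl -0.54, with none called.

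**Figure D5:**
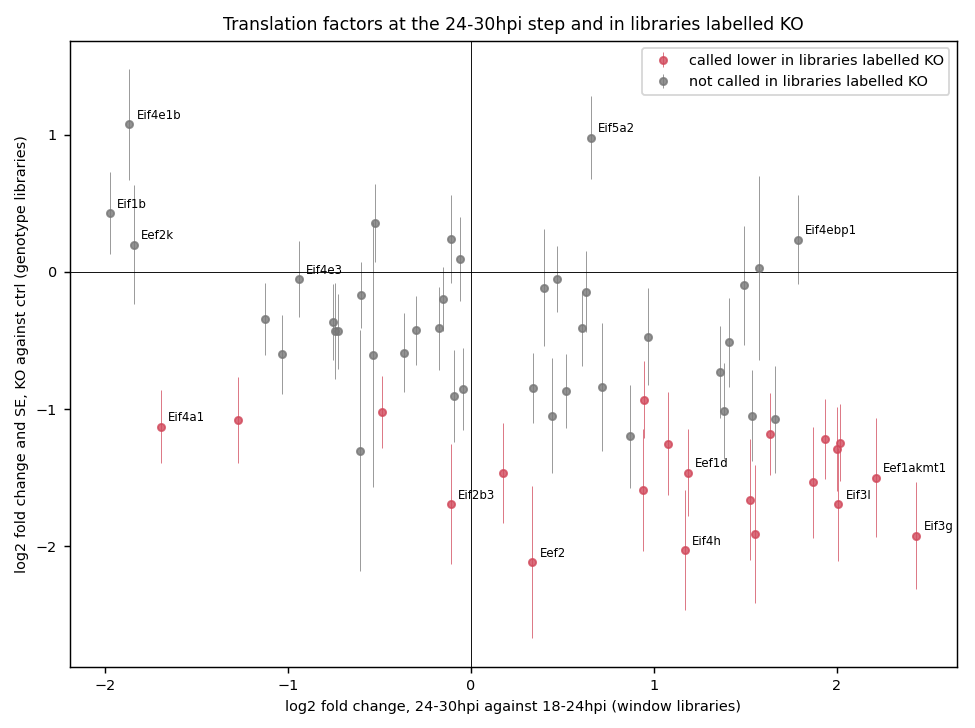
Each point is a translation factor gene tested in both tables: x, log2 fold change at 24-30hpi against 18-24hpi; y, log2 fold change with SE in the libraries labelled KO against ctrl; red marks members called lower in KO. Of the members right of 0 that rose at the step, 15 are red, and Eif4e1b and Eif5a2 have the highest y values.

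Other genes of translation were read from a list of 50 (poly(A)-binding proteins and their regulators, eIF2 kinases, release and recycling factors, diphthamide enzymes, upstream kinases and RNA-binding repressors). Counted by record, 50 were tested in the windows and 49 in the genotypes, where Dohh has a duplicate record. At 24-30hpi against 18-24hpi 24 rose and 13 fell, where 21.0% and 24.4% of all genes did. Abcf1, an ATPase that promotes initiation, rose to 57.2, 39.0 and 53.3 CPM, against 19.0, 12.3 and 11.4 CPM at 18-24hpi (log2 ratio 1.81, SE 0.18, adjusted p = 2.42e-10), and Pabpc1, the somatic poly(A)-binding protein, to 155, 168 and 172 CPM, against 43.5, 56.1 and 51.2 CPM (log2 ratio 1.71, SE 0.18, adjusted p = 2.12e-09). Eif2ak1, the heme-regulated eIF2 kinase, had already fallen at 6-12hpi (log2 ratio -1.22 at adjusted p = 1.80e-09), and Ddx3x, an RNA helicase, fell at 30-36hpi (log2 ratio -0.89 at adjusted p = 2.49e-09). At 48-54hpi 22 rose and 12 fell (28.7% and 33.3% of all genes), and at 90-96hpi against MII 29 rose and 16 fell (42.6% and 38.4% of all genes). In the libraries labelled KO, 10 of the 49 records fell against ctrl, where 6.31% of all genes fell and 1.82% rose. Pdcd4, which inhibits eIF4A, rose (log2 ratio 1.89 at adjusted p = 0.0428). Abcf1 had 23.0, 28.6 and 37.9 CPM in KO, against 71.7, 152 and 157 CPM in ctrl (log2 ratio -2.09, SE 0.45, adjusted p = 0.0138), and Larp1, which binds mRNAs of the translation machinery, 10.3, 10.5 and 16.2 CPM in KO, against 34.4, 49.3 and 44.8 CPM in ctrl (log2 ratio -1.80, SE 0.38, adjusted p = 0.0138).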

How the data were processed

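Poly(A) RNA was read after 4SU labelling and alkylation in 30 window libraries and 11 genotype libraries. The submitters' processing notes name Trim Galore 0.6.10, STAR 2.7.10a, SAMtools 1.12, Bowtie2 2.4.2, Picard 2.20.4, deepTools 3.5.4 and the builds mm10 and GRCm38, without their roles. The genotype table deposited by the authors holds whole-number read counts per gene symbol. The window table deposited by the authors holds counts too, except that the column of 90-96hpi replicate 3 was handled like estimated counts, since 1 damaged record (Nyx) holds a fraction there. That record was left out, and the other values are whole numbers. A further table, from libraries outside these groups, was not used here. The counting tool, its use of strand and its treatment of reads that match several genes are not given in the sources used here, so Eif3j1 and Eif3j2, Eif2s3x and Eif2s3y, Eif4a1 and Eif4a2, and Eef1a1 are uncertain to that extent.

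Each table was fitted whole with edgeR 4.0.16, run in R 4.3.3. Genes passed filterByExpr at a count of at least 10 and a sum of at least 15, libraries were scaled by TMM, the quasi-likelihood test was fitted with the robust option, and p-values were Benjamini-Hochberg adjusted over all genes tested, with 0.05 as threshold. The filter keeps genes that are high in 1 group alone, which then differ from the others. The fit was tested on simulated data. Alternatives were DESeq2 1.42.0, DESeq2 size factors, total count scaling, no filter, fits of the compared groups alone, a replicate block, each library left out in turn, and a minimum log2 fold change of 1. CPM per kb used the transcript lengths in the files. The members, role classes and other gene lists were chosen with earlier results of these data known. Libraries of a group correlated at r = 0.976 to 0.993 across genes in the windows and 0.913 to 0.98 in the genotypes, and none agreed within sampling noise. Members printed with full values were those in paralogue sets and, per comparison, up to 4 called in each direction with the smallest adjusted p and at least 20 CPM in the higher group; others named were chosen after their values were seen.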

Additional observations from a re-analysis of the deposited data

How the results depend on the processing

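With a minimum log2 fold change of 1, the numbers of members called were 7 at 0-6hpi, 6 at 6-12hpi, 9 at 12-18hpi, 10 at 18-24hpi, 28 at 24-30hpi, 32 at 30-36hpi, 11 at 70-76hpi and 19 at 90-96hpi against 70-76hpi. Fitting only the 2 groups compared gave 30 at 6-12hpi against 0-6hpi. Without the filter on low counts 1 member was called in mKO against ctrl and 4 in KO against mKO, where DESeq2 called 1. Leaving out each library gave 8 to 12 members at 6-12hpi against 0-6hpi, 0 to 14 in KO against ctrl, 0 to 2 in mKO against ctrl (2 without mKO replicate 2), 0 to 11 in KO against mKO and 5 to 14 in KO against pKO. All other totals of called members stayed within 1.5 times their value. The share of all genes called is not given for any of these alternatives. By direction, the falls at 0-6hpi numbered 16 with DESeq2 or with only the 2 groups compared, against 9; at 6-12hpi 3 fell with DESeq2, and 20 rose and 10 fell with only the 2 groups compared; in KO against ctrl 1 or 2 members were called higher under 5 alternatives. Total count scaling turned the log2 fold change of 7 called results: Eif2s2 at 24-30hpi (0.0459), Eif1 (-0.10), Eif2s3x (-0.0432), Eif4g1 (-0.16), Eif4g2 (-0.11) and Eif5b (-0.0664) at 48-54hpi, and Eif4a1 at 90-96hpi against MII (0.0828). The cause was not tested. It also moved the median of all genes by over 0.1, to 0.19 at 0-6hpi, 0.12 at 18-24hpi, 0.28 at 24-30hpi, -0.66 at 48-54hpi, 0.20 at 70-76hpi, 0.17 at 90-96hpi against 70-76hpi, 0.79 at 90-96hpi against MII and 0.20 in KO against pKO, beside 0.03, 0, -0.12, -0.19, 0, 0.07, 0.27 and 0.09 with TMM. Over all pairs of a called member fold change and a left-out library, the call was kept in 2084 and lost in 410; with DESeq2, 407 called fold changes kept their call and 13 lost it. Deviations of same-numbered libraries correlated at -0.0719 to 0.164 in the windows (median 0.00425, beside -0.00395 for other numbers). In the genotypes they correlated at -0.0504 to 0.322 (median 0.0864, beside -0.0471 for other numbers). The main fit held no replicate block, and pairing by number was not tested further. With the replicate block, 29 members were called in KO against ctrl, where the main fit called 21. Of the called fold changes, 418 kept their call with the block and 2 lost it. With 2 or 3 libraries a group, members below about 10 reads could not be tested.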
